A study of Mus musculus with 24 samples.

Results

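Genes of the Wnt, BMP, FGF and Notch pathways were examined for differentially 5-hydroxymethylated regions (DhMRs) between 2 mouse embryonic stem cell (ESC) lines. The members were the 198 bp windows that lay inside a gene named Wnt, Fzd, Sfrp, Dkk, Bmp, Bmpr, Smad, Fgfr, Fgf, Notch, Dll, Jag, Hes or Hey with a number or letter, or inside Lef1, Tcf7, Tcf7l2, Axin1 or Axin2, or that carried the Ensembl ID of such a gene in the deposited lists. Autosomal protein-coding genes were used, without Fgf4 and Fgf5. This gave 104 genes and 114 of the 20726 listed windows. 47 of the 104 genes had at least 1 window.

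5-hydroxymethylcytosine (5hmC), the product that Tet enzymes make from 5-methylcytosine, was measured by immunoprecipitation of DNA with an antibody and sequencing (5hmC-DIP), with 3 libraries per line. Both lines were mixed C57BL/6J-129V ESCs that lack Tet1, Tet2 and Tet3 and received Flag-tagged full-length human Tet3 by lentivirus: the wild-type protein in Wt25, and in AA10 the phosphor-mutant, in which both serines that the kinase cdk5 phosphorylates are changed to alanine. Each line was a single clone selected with puromycin, so the form of Tet3 and the clone cannot be told apart. The cells were kept in 2i medium with LIF that also held fetal bovine serum. 2i holds an inhibitor of GSK3, which switches on β-catenin signalling, and an inhibitor of MEK, which acts downstream of FGF receptors, and both lines shared them. The deposited lists pool the 3 libraries and give only positions, without counts, fold changes or *P*-values per library or per line, so no replicate spread and no test can be given for a window, and the size of each difference and the depth behind it are unknown from them.

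As background, Wnt ligands bind Frizzled receptors and stabilise β-catenin, which then acts with the TCF/LEF factors, while Axin proteins help to degrade β-catenin and the Sfrp and Dkk proteins block the signal outside the cell. BMP ligands act through receptor kinases on Smad proteins, FGFs through receptor tyrosine kinases and MAP kinases, and Notch receptors, bound by Dll and Jag ligands, release a fragment that works with RBPJ to switch on Hes and Hey repressors. These pathways pattern the early embryo. In ESCs, BMP signalling acts against neural differentiation and FGF signalling drives the exit from pluripotency.

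The numbers of windows in each direction are given first by pathway, beside 58.4% of all listed windows higher in Wt25. Differences between pathways were not tested. Of the 20 windows of BMP and Smad genes, 17 were higher in Wt25 and 3 in AA10. Of the 32 windows of FGF genes, 22 were higher in Wt25 and 10 in AA10. The 53 windows of Wnt genes were divided into 25 higher in Wt25 and 28 higher in AA10, and within them those of Wnt ligands into 4 and 13, of which Wnt7b alone held 7 of the 13. The 9 windows of Notch genes were divided into 5 and 4. The genes with the longest sets in 1 direction were Wnt7b with 7 windows higher in AA10, Fgf3 with 6 higher in Wt25, and Bmp7 and Fzd9 with 5 each higher in Wt25.

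The sequences of 8 of these windows are given here, since the lists hold positions alone and the base content decides how many CpGs, the sites that Tet enzymes mostly act on, a window can hold. They are from the plus strand of GRCm38.p6, with each CpG in capitals. The first pair overlaps the promoter, 1 kb upstream to 100 bp downstream of a start site, of a member gene: the Wnt7b window, higher in AA10, has 8 CpGs, and the Fgf3 window, higher in Wt25, has 1. The Wnt7b window overlaps the promoter only at its edge. Its middle lies 1.08 kb upstream, and all 8 CpGs lie outside the promoter.
Wnt7b, chr15:85582803-85583000: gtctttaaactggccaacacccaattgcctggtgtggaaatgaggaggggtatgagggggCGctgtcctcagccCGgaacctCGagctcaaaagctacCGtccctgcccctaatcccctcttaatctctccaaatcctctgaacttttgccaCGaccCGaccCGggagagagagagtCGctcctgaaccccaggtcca
Fgf3, chr7:144837603-144837800: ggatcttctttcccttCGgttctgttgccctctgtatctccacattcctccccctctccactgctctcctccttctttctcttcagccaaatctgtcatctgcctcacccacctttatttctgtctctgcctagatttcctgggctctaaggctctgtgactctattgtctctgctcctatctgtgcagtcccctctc

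The others are windows inside a gene with most CpGs for their pathway and direction, leaving out those that overlap a UTR or lie on a chromosome from which no sequence is printed (for FGF genes, the Fgf1 window with 5 CpGs). The Wnt pair shows a Tcf7l2 intron window higher in Wt25 with 8 CpGs and a window in the coding exon of Fzd7 higher in AA10 with 14.
Tcf7l2, chr19:55785003-55785200: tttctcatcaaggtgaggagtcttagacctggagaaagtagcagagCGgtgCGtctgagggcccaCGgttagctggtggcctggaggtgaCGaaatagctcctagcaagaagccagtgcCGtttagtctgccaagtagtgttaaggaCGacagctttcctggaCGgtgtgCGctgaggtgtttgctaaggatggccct
Fzd7, chr1:59483803-59484000: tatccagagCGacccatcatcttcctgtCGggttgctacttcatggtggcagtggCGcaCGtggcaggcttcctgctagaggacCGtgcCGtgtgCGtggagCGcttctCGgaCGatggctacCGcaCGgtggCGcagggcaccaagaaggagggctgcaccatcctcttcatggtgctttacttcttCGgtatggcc

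For BMP genes, the window higher in AA10 is shown, which has 3 CpGs and lies in intron 4 of Bmp5. A window of the same gene 11.4 kb away was listed in the opposite direction.
Bmp5, chr9:75877803-75878000: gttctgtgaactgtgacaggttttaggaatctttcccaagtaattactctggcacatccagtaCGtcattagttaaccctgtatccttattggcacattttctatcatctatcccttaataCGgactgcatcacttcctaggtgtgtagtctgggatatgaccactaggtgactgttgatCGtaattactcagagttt

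The FGF pair shows a window over coding exon 4 of Fgf8 higher in Wt25 with 12 CpGs and a window in intron 2 of Fgfr2 higher in AA10 with 3.
Fgf8, chr19:45741403-45741600: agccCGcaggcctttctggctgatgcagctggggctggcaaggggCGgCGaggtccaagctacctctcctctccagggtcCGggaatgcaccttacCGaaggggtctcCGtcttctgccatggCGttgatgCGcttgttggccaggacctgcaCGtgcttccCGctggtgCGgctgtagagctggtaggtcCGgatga
Fgfr2, chr7:130253003-130253200: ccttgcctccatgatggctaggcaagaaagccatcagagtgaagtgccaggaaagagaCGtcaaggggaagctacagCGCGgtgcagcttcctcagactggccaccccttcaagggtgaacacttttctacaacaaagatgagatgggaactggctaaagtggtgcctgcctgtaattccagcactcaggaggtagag

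For Notch genes, the window higher in AA10 is shown, which has 6 CpGs and lies in intron 1 of Notch2.
Notch2, chr3:98029203-98029400: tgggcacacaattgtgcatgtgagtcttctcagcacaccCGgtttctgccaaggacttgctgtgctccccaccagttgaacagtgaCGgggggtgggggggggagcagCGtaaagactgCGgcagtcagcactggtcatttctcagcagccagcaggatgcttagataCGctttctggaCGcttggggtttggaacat

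Of the 114 member windows, 69 (60.5%, 95% Wilson interval 51.4% to 69%) were higher in Wt25 and 45 in AA10, beside 58.4% of all listed windows. The intervals cover the number of windows only. They do not cover the spread between libraries, and windows next to each other are not independent. The share higher in Wt25 was 47.2% (34.4% to 60.3%) for Wnt, 85% (64% to 94.8%) for BMP and Smad, 68.8% (51.4% to 82%) for FGF and 55.6% (26.7% to 81.1%) for Notch genes. The BMP and Smad interval lay above the share of all listed windows, and the other 3 included it. When windows of 1 list within 1 kb were joined, the BMP and Smad share was 83.3% of 18 regions (60.8% to 94.2%), and without Bmp7 it was 80% of 15 windows (54.8% to 93%), an interval that includes the share of all listed windows.

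**Figure D1:**
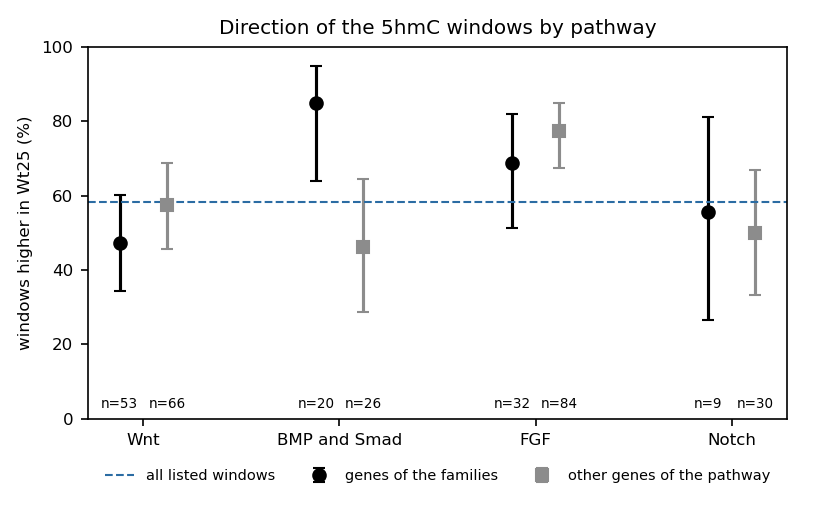
Share of windows higher in Wt25, in percent, for the genes of the families (black circles) and for the other genes of each pathway (grey squares), with 95% Wilson intervals and the number of windows below, and the 58.4% of all listed windows as a dashed line. The BMP and Smad genes stand at 85% and the Wnt genes at 47.2%, while the other BMP genes stand at 46.2%. The other BMP genes include those of TGF-β, activin and Nodal signalling.

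45.2% of the 104 genes had a window, beside 34.4% of all 20665 autosomal protein-coding genes. By pathway these were 19 of 42 Wnt genes, 8 of 22 BMP and Smad genes, 14 of 22 FGF genes and 6 of 18 Notch genes. The 34.4% is also the comparison for the counts of genes with windows in each family below. Of the 104 genes, 32.7% had a window higher in Wt25 (22.6% of all genes) and 22.1% had one higher in AA10 (16.7% of all genes). Windows of both lists were found for 9.62% (4.91% of all genes). Most of these assignments came from outside the genes. Only 45 of the 114 windows (39.5%) lay inside a member gene. Of the windows of all autosomal protein-coding genes, 58.9% lay inside such a gene. The 2 shares are not like measures, since the second counts a window inside any such gene and the first only inside a member gene. The other 69 member windows carried the ID of a member gene at a median distance of 20.2 kb from it, between 0.627 and 494 kb. Of these, 8 lay inside another gene. Per 100 kb of gene, the members held 0.849 windows inside, beside 1.06 for all genes. The higher share of genes with a window was thus not accompanied by more windows per length inside them. Gene length differed between the sets, with a median span of 23.6 kb for the members and 17.5 kb for all genes. By pathway the median was 21.3 kb for Wnt, 65 kb for BMP and Smad, 15.6 kb for FGF and 9.73 kb for Notch genes. All genes together held 0.648 windows higher in Wt25 and 0.416 higher in AA10 per 100 kb. Wnt genes held 0.365 and 0.583, BMP and Smad genes 0.613 and 0.0613, FGF genes 0.576 and 0.209, and Notch genes 0.768 of each. The BMP and Smad genes held close to the number of windows higher in Wt25 per length of all genes, and fewer higher in AA10. Notch genes held 1.54 windows of both directions per 100 kb, from 6 windows.

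Inside the genes alone the pathways stood in the same order. 5 of 13 Wnt windows (38.5%), 10 of 11 BMP and Smad windows (90.9%), 11 of 15 FGF windows (73.3%) and 3 of 6 Notch windows (50%) were higher in Wt25. Of the 29 member genes with 2 or more windows, 19 (65.5%) had all of them in 1 list, 14 higher in Wt25 and 5 higher in AA10, beside 71.5% of the 3560 such genes in the genome.

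**Figure D2:**
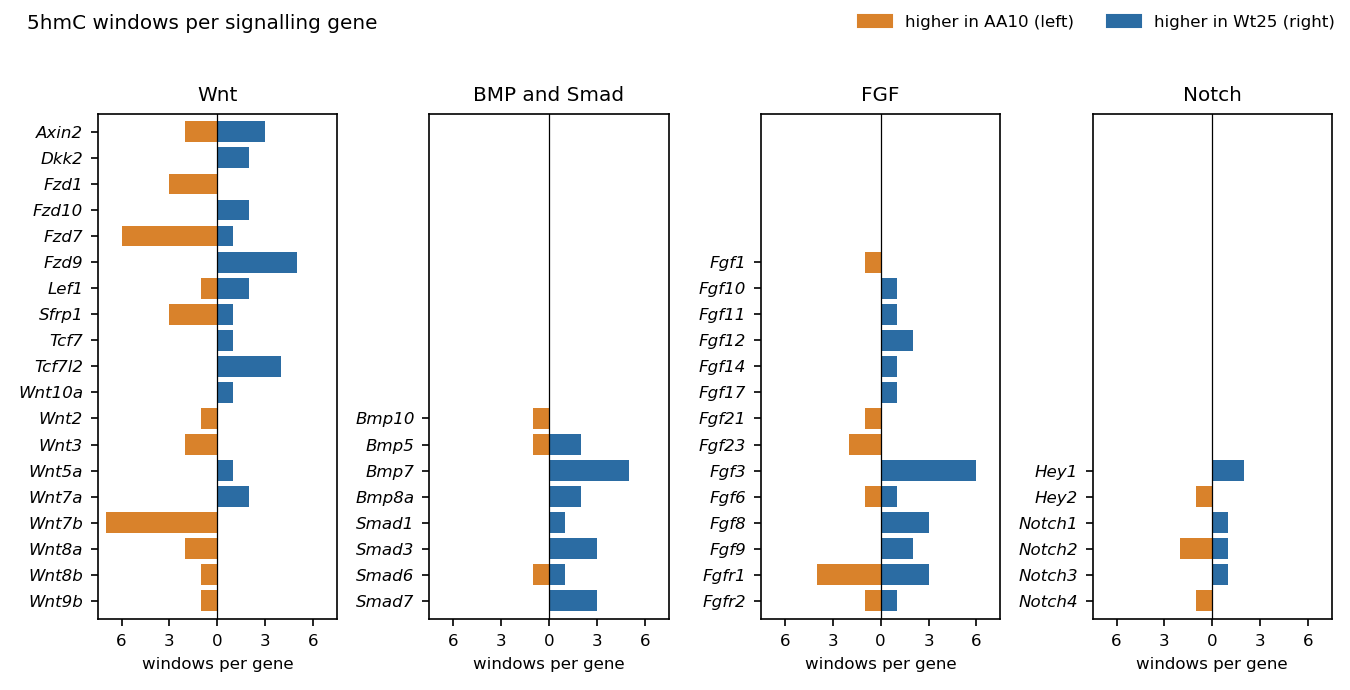
Number of windows for each of the 47 genes with a window, to the right for windows higher in Wt25 (blue) and to the left for windows higher in AA10 (orange), in 1 panel per pathway. Wnt7b has 7 windows to the left and none to the right, Fgf3 has 6 to the right and none to the left, and Fgfr1 has 3 and 4.

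Among the 19 Wnt ligand genes, 9 had windows, beside 34.4% of all genes. No ligand gene had windows in both directions, beside 4.91% of all genes. Wnt7b, a ligand needed in lung and kidney development, had 7 windows, all higher in AA10. 5 of them lay within 7.2 kb (chr15:85576003-85583200) around its start sites: 3 in intron 1, 1.97, 1.77 and 0.628 kb downstream of the nearest start site, and a neighbouring pair 1.08 and 1.28 kb upstream, over an exon of the non-coding gene AU022754. The other 2 lay 20.9 and 25.3 kb upstream, the second wholly in repeat sequence. Within 500 kb of Wnt7b, the 11 remaining windows went mostly the other way, 8 higher in Wt25 and 3 in AA10, and 59% of the windows of chromosome 15 were higher in Wt25. Without Wnt7b the Wnt ligands had 4 windows higher in Wt25 and 6 in AA10, a share of 40% (16.8% to 68.7%) in place of 23.5% (9.56% to 47.3%).

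Wnt3, required for the primitive streak, had 2 windows higher in AA10, 1 in intron 1 and 1 that lay 3.47 kb upstream and also inside the span of the neighbouring ligand gene Wnt9b. That window was counted once in the totals and was the only window of Wnt9b. Wnt8a had 2 windows higher in AA10, 6.63 kb upstream and 12.8 kb downstream of its start site, and Wnt8b and Wnt2 had 1 each. The 4 ligand windows higher in Wt25 belonged to Wnt7a, with 1 window in intron 3 and 1 that lay 16 kb past the gene, to Wnt10a, with 1 window at 0.627 kb past its end, and to Wnt5a, with 1 window 83.4 kb upstream inside Erc2. Wnt7a and Wnt2 are on chromosome 6, where 12% of all listed windows were higher in Wt25. Both windows of Wnt7a were of that smaller class.

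The Frizzled receptors had 17 windows in 4 of 10 genes, 8 higher in Wt25 and 9 in AA10, and they were divided by gene. Fzd7, a receptor active in ESCs, had 6 windows higher in AA10 and 1 higher in Wt25. 5 of those higher in AA10 formed a group of 16.4 kb (chr1:59379003-59395400) between 86.8 and 103 kb upstream of the gene, with 2 to 6 CpGs each, and the sixth was the window in its single coding exon printed above. The window higher in Wt25 lay 17.2 kb upstream, between them. The 6 remaining windows within 500 kb of Fzd7 were evenly divided, 3 in each direction. Fzd1 had 3 windows higher in AA10, at 41.5 kb upstream and at 24.1 and 56.9 kb downstream of its start site. The only other window listed within 500 kb of Fzd1 was also higher in AA10.

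Fzd9 had 5 windows, all higher in Wt25, and Fzd10 had 2, also higher in Wt25. The 5 windows of Fzd9 lay between 28.7 kb upstream and 6.55 kb downstream of its start site and none was inside the gene: 2 were in the 3' UTR of the neighbouring gene Baz1b. All 20 remaining windows within 500 kb of Fzd9 were also higher in Wt25. Without Fzd9 the receptors had 3 windows higher in Wt25 of 12 (25%), and without Fzd7 they had 7 of 10 (70%), beside 47.1% for the whole family.

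Of the 13 windows of Axin and TCF/LEF genes, the intracellular members of the Wnt pathway, 10 were higher in Wt25 (76.9%, 49.7% to 91.8%), an interval that includes the share of all listed windows. Tcf7l2, a DNA-binding partner of β-catenin, had 4 windows, all higher in Wt25: an adjoining pair in intron 4 (chr19:55785003-55785400) with 8 and 6 CpGs, 1 window 1.51 kb upstream of a start site over the non-coding gene Gm31734, and 1 that lay 18.5 kb past the gene with 98.5% repeat sequence. Within 500 kb of Tcf7l2, 6 of the 8 remaining windows were higher in Wt25, as were 81.4% of the windows of chromosome 19. Lef1, of the same family, had 3 windows, all in intron 3, of which 1 was higher in AA10 and 2, in a stretch of 5.2 kb, were higher in Wt25. Tcf7 had 1 window, higher in Wt25, 20.7 kb upstream and wholly in repeat sequence. Axin2, a scaffold of the complex that degrades β-catenin and itself a known target of Wnt signals, had 3 windows higher in Wt25 and 2 in AA10 in alternating order. The window in its intron 3 was higher in AA10. The other 4 lay 34.6 kb upstream and 40.4, 44 and 60.6 kb downstream of its start site, and the second of these 3 was higher in AA10.

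Of the secreted inhibitors, Sfrp1, which binds Wnt proteins, had 1 window higher in Wt25 and 3 in AA10, all past the 3' end of the gene by 2.57 to 86.8 kb. Dkk2, which binds the Wnt co-receptors, had 2 windows higher in Wt25 at 128 and 149 kb upstream. No window was listed for 23 Wnt pathway members: Axin1, Dkk1, Dkk3, Dkk4, Fzd2, Fzd3, Fzd4, Fzd5, Fzd6, Fzd8, Sfrp2, Sfrp4, Sfrp5, Wnt1, Wnt2b, Wnt3a, Wnt4, Wnt5b, Wnt6, Wnt9a, Wnt10b, Wnt11 and Wnt16. The lists hold only bins that passed the limits, so a missing gene says nothing of whether 5hmC there was equal, low or unmeasured.

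**Figure D3:**
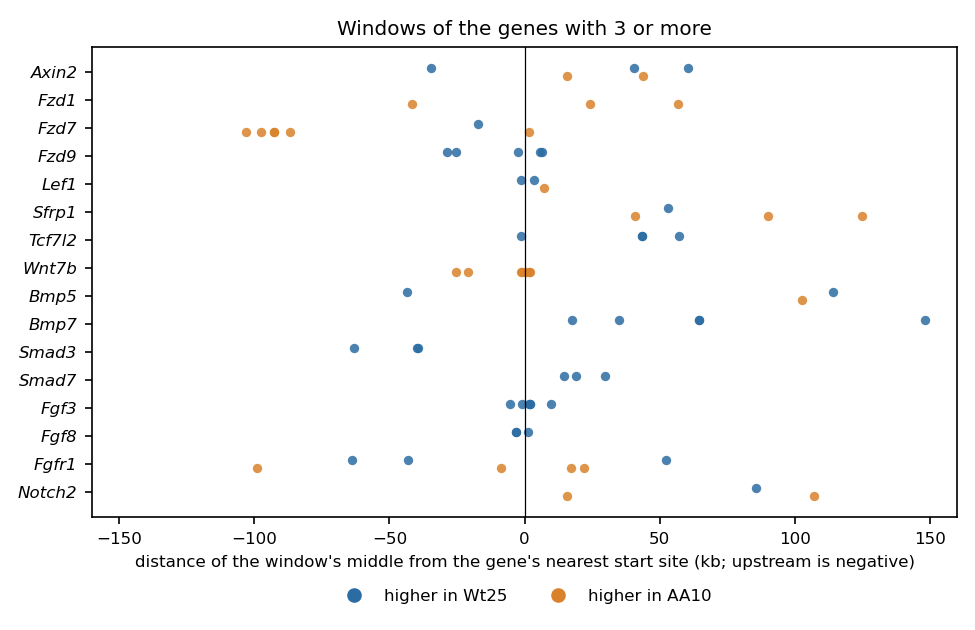
Distance in kb of the middle of each window from the nearest start site of its gene, for the 16 genes with 3 or more windows (upstream is negative), with windows higher in Wt25 in blue and higher in AA10 in orange. The windows of Fgf3 and Fgf8 and 5 of the 7 of Wnt7b gather near the start sites. All 3 of Smad3 and 6 of the 7 of Fzd7 lie upstream, and those of Axin2 alternate in direction.

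In the BMP pathway, 4 of the 10 genes named Bmp with a number had windows, 9 higher in Wt25 and 2 in AA10. Bmp7, a ligand of kidney and eye development, had 5 windows, all higher in Wt25. 4 lay inside the gene, an adjoining pair in intron 4 (chr2:172875603-172876000), 1 in intron 2 and 1 in intron 1, with 1 to 3 CpGs each, and the fifth lay 75.6 kb past the gene. Of the 22 remaining windows within 500 kb of Bmp7, 21 were also higher in Wt25. Bmp5, a ligand of skeletal growth, had 1 window higher in AA10 in intron 4 and 2 higher in Wt25. Of these 2, 1 lay in intron 5 and 1 lay 43.5 kb upstream, wholly in repeat sequence. Bmp8a had 2 windows in intron 1, both higher in Wt25, and 1 of them was wholly in repeat sequence. Bmp10, a ligand of the developing heart, had 1 window higher in AA10, and it lies on chromosome 6.

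The Smads, which carry the signal of BMP and TGF-β receptors to the nucleus, had 9 windows in 4 of 8 genes, and 8 of the 9 were higher in Wt25. Smad3, used by TGF-β and activin receptors, had 3 windows upstream, an adjoining pair at 39.5 and 39.7 kb and 1 at 63.3 kb, all higher in Wt25. The 6 remaining windows within 500 kb of Smad3 were evenly divided, 3 in each direction. Smad7, an inhibitor of the signal, had 3 windows, all higher in Wt25, of which 2 were in intron 3 and 1 lay 1.07 kb past the gene. Chromosome 18, which holds Smad7, had 41.5% of its windows higher in Wt25, but 18 of the 21 others within 500 kb of Smad7 were. Smad1, used by BMP receptors, had 1 window in intron 1, higher in Wt25. Smad6, the other inhibitory Smad, had 1 window in each list, 94.4 kb downstream of its start site (higher in Wt25) and 76.4 kb downstream (higher in AA10). The first of these held 19 CpGs at 73.7% GC, the most of any member window.

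None of the 3 BMP receptor genes Bmpr1a, Bmpr1b and Bmpr2 had a window. No window was listed either for Bmp1, a protease, for Bmp2k, a kinase that shares only the name, for the ligands Bmp2, Bmp3, Bmp4, Bmp6 and Bmp8b, or for Smad2, Smad4, Smad5 and Smad9.

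Of the 15 secreted FGF genes, 9 had windows, beside 34.4% of all genes. Of these windows, 14 were higher in Wt25 and 5 in AA10. Fgf3, a ligand of inner ear and tail development, had 6 windows, all higher in Wt25, of which 5 lay in 7.6 kb (chr7:144833203-144840800). They ran from 5.31 kb upstream through the promoter window printed above, 0.911 kb upstream, and 2 windows in intron 1 into coding exon 2, which held 6 CpGs. The sixth lay 4.86 kb past the gene. Only 3 other windows were listed within 500 kb of Fgf3, and all 3 were higher in Wt25. Fgf8, a ligand of gastrulation and limb outgrowth, had 3 windows in 4.8 kb (chr19:45741403-45746200), all higher in Wt25: the exon window printed above and an adjoining pair 3.01 and 3.21 kb upstream with 6 and 10 CpGs. The 10 remaining windows within 500 kb of Fgf8 were evenly divided, 5 in each direction. Without Fgf3 the FGF genes had 16 windows higher in Wt25 and 10 in AA10, a share of 61.5%.

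Fgf17, a relative of Fgf8, had 1 window in its 5' UTR, 0.367 kb downstream of the start site, with 8 CpGs, and it was higher in Wt25. It was the only member window in a 5' UTR. Fgf9 had 2 windows higher in Wt25, 1 in intron 1 and 1 that lay 494 kb past the gene. Fgf10, a ligand of lung and limb outgrowth, had 1 higher in Wt25, 222 kb downstream of its start site and wholly in repeat sequence. The 5 windows higher in AA10 belonged to Fgf1 with 1 in intron 1, to Fgf21, a liver hormone, with 1 that lay 10.7 kb past the gene, to Fgf23, a bone hormone of phosphate balance, with 2 between 1.11 and 2.71 kb past the gene, and to Fgf6 with 1. Fgf6 also had 1 window higher in Wt25, 3.6 kb from the first. Fgf6 and Fgf23 are neighbours on chromosome 6.

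The 3 intracellular FGF genes, whose proteins act on sodium channels and not as ligands, all had windows, and all 4 were higher in Wt25. They were 1 in intron 3 of Fgf11, 1 in intron 2 of Fgf12, 1 that lay 87.9 kb upstream of Fgf12 inside Mb21d2, and 1 in intron 3 of Fgf14. Fgf12 and Fgf14 are long, with spans of 595.5 and 703.2 kb beside a median of 15.6 kb for FGF genes. Of the 4 receptor genes, Fgfr1 and Fgfr2 had windows, and each had both directions. Fgfr1, the main FGF receptor of ESCs, had 3 windows higher in Wt25 and 4 in AA10. In genome order from upstream, the 7 windows were AA10 at 99.1 kb, Wt25 at 63.9 and 43.1 kb and AA10 at 8.66 kb upstream, then 2 in intron 2 higher in AA10 and 1 in intron 13 higher in Wt25. Fgfr2 had 1 window in intron 5 higher in Wt25 and 1 in intron 2 higher in AA10. No window was listed for Fgf2, Fgf7, Fgf15, Fgf18, Fgf20, Fgf22, Fgfr3 and Fgfr4.

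In the Notch pathway, 6 of the 18 genes had a window, beside 34.4% of all genes. All 4 receptor genes were among them, and all 6 windows of the receptor genes lay inside introns, 3 in each direction. Notch1 had 1 window in intron 2 and Notch3 had 1 in intron 29, both higher in Wt25. Notch4 had 1 in intron 8, higher in AA10. Notch2 had 3 windows: those in introns 1 and 17 were higher in AA10, and the one in intron 6 was higher in Wt25. The 3 other windows within 500 kb of Notch2 were all higher in AA10. Of the repressors that Notch switches on, Hey1 had 2 windows higher in Wt25, 6.46 kb (9 CpGs) and 118 kb upstream, and Hey2 had 1 higher in AA10, 227 kb upstream. None of the 5 ligand genes Dll1, Dll3, Dll4, Jag1 and Jag2 had a window, and neither had Hes1, Hes2, Hes3, Hes5, Hes6, Hes7 and Heyl.

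Direction varied strongly between chromosomes, from 12% of windows higher in Wt25 on chromosome 6 to 81.4% on chromosome 19, so the counts were set beside those that the share of each window's own chromosome would give. For BMP and Smad genes 17 windows were higher in Wt25, and the chromosome shares gave 12.4. For Wnt genes there were 25 beside 30.3, for FGF genes 22 beside 19.7 and for Notch genes 5 beside 5.6. Over all members the 69 observed windows stood beside 68. 8 member windows were on chromosome 6, 3 higher in Wt25 and 5 in AA10. Without chromosome 6, the shares were 46% for Wnt, 89.5% for BMP and Smad, 75% for FGF and 55.6% for Notch genes.

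By position, member windows were mostly intergenic (51.8%, beside 45.3% of all listed windows) or intronic (37.7% beside 44.4%). 1 window was in a promoter by its middle (0.877% beside 2.92%), that of Fgf3. 3 were in coding exons (2.63% beside 3.03%), those of Fzd7, Fgf3 and Fgf8. Windows in a region 100 bp upstream to 1 kb downstream of a transcript end numbered 2, at Wnt10a (higher in Wt25) and at Tigar, beside Fgf23 (higher in AA10). The median distance to the nearest start site of any gene was 20.8 kb, beside 21.5 kb for all windows. 14.9% of the member windows adjoined another member window of the same list, while 25.6% of all listed windows adjoined another of theirs. A member window that adjoined only a window outside the members was not counted, so the 2 shares are not like measures.

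The member windows held somewhat more CpGs than the lists in general, with a mean of 3.89 ± 3.03 (SD over 114 windows) beside 3.21 ± 2.46 (SD over 20726 windows), but both medians were 3. 13 of them (11.4%) had 8 or more CpGs, beside 4.91% of all windows. Median GC was 50% beside 47%, and repeat-marked sequence took 25.4% of the bases on average beside 31.9%. Between the directions the members had means of 3.97 ± 3.23 CpGs (69 windows higher in Wt25) and 3.76 ± 2.71 (45 higher in AA10), a difference much smaller than the spread between windows. Windows of BMP and Smad genes had a median of 2 CpGs and those of the other 3 pathways a median of 3. Repeat-marked sequence averaged 33.2% in windows of BMP and Smad genes, 21.4% in those of Wnt, 30.9% in those of FGF and 11.9% in those of Notch genes.

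**Figure D4:**
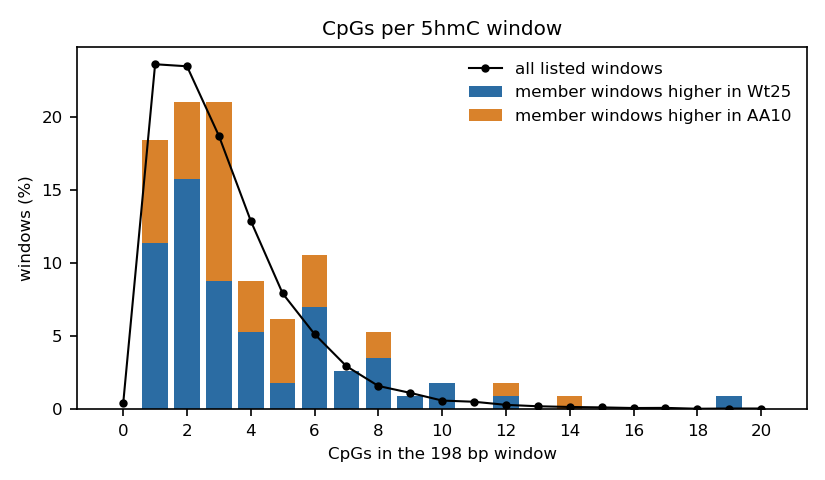
Percentage of windows by number of CpGs in the 198 bp window, as stacked bars for the 114 member windows (blue higher in Wt25, orange higher in AA10) and as a black line for all 20726 listed windows. Member windows are fewer than the line at 1 CpG and more at 6 and 8, and the 1 window with 19 CpGs belongs to Smad6.

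Short motifs bound by the factors at the end of these pathways were searched on both strands of each window. The TCF/LEF motif CTTTGAT was in 6 member windows (5.26%, beside 3.44% of all windows). It was in 5 of the 32 FGF windows, 1 of the 20 BMP and Smad windows and none of the 53 Wnt windows. The RBPJ motif GTGGGAA was in 8 (7.02% beside 4.47%), none of them among the 9 Notch windows. The SMAD motif CAGACA was in 20 (17.5% beside 17.7%), in 14 of the 53 Wnt windows and 3 of the 20 BMP and Smad windows. These numbers are too small to tell whether a motif is more or less common in 1 pathway. Of the Hes motifs, CACGTG was in 7 (6.14% beside 3.79%) and CACGCG was in 0 (1.29% of all windows). CCGG, the site of the enzyme MspI that is used to measure 5hmC at single sites, was in 29 (25.4% beside 21.7%). A match describes the letters of a window and does not show binding.

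A further 155 genes of the same pathways (co-receptors, transducers, antagonists and targets outside the naming rule) were counted by the same rule. Genes of TGF-β, activin and Nodal signalling, which are related to the BMP pathway, were placed in its list. 81 had a window (52.3%, beside 34.4% of all genes), with 130 of 206 windows (63.1%, 56.3% to 69.4%) higher in Wt25, an interval that includes the 58.4% of all listed windows. In the FGF list, 28 of 36 genes (77.8%) had windows, 65 higher in Wt25 and 19 in AA10 (77.4%, 67.4% to 85%). 23 of the 65 belonged to Spred2, an inhibitor of the MAP kinase signal, all higher in Wt25. The interval with Spred2 lay above the 58.4% of all listed windows. Without Spred2 the share was 68.9% (56.4% to 79.1%), an interval that includes the 58.4%. Etv4, a transcription factor that FGF signals induce, had 6 windows higher in Wt25, and the inhibitor Spry4 and the exchange factor Sos2 had 4 each, also all higher in Wt25. Frs2, the docking protein of FGF receptors, had 3 and 1, and Flrt1, a membrane partner of the receptors, had 3 and 2. The kinase gene Braf, on chromosome 6, had 1 window higher in Wt25 and 6 in AA10.

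In the other BMP genes, 15 of 39 (38.5%) had windows: 12 were higher in Wt25 and 14 in AA10 (46.2%, 28.8% to 64.5%). This list mixes genes of BMP signalling with those of TGF-β, activin and Nodal signalling, so its share is not that of BMP genes alone. 6 of the 12 windows higher in Wt25 belonged to Inhbb, which encodes an activin subunit. In the other Wnt genes, 25 of 44 (56.8%) had windows, 38 higher in Wt25 and 28 in AA10 (57.6%, 45.6% to 68.8%). Tcf7l1, the repressor of the TCF family in ESCs, had 6 windows, all higher in AA10, and it is on chromosome 6. The co-activator Pygo1 had 5 windows higher in Wt25, the co-receptor Lrp5 had 3 and 2, the co-repressor Tle4 had 2 and 3, and Znrf3, which removes Frizzled receptors from the membrane, had 1 and 3. In the other Notch genes, 13 of 36 (36.1%) had windows, 15 in each direction. Spen, a co-repressor that binds RBPJ, and Dtx2, a ubiquitin ligase of the Deltex family, had 4 windows each, all higher in AA10.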

How the data were processed

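The values came from the 2 deposited DhMR lists of the 3 Wt25 and 3 AA10 5hmC-DIP libraries. Per the paper's methods, the authors mapped unique reads with STAR to GRCm38 (Ensembl 87), removed duplicates with Picard and compared read counts in bins of 200 bp with MEDIPS (*P* under 0.05, at least 1-fold). They then filtered out bins over IgG-DIP peaks, tandem repeats or low complexity sequence and used HOMER to assign genes. Tool versions are not given in the sources used here. The deposited columns hold positions and a gene ID, with every window 198 bp long, and no depth.

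Gene spans, curated transcripts and sequences came from RefSeq on GRCm38.p6, and all 104 genes had an Ensembl ID. A window's feature is that of its middle, with promoters taken first, then transcript ends and exons. Introns were numbered in the coding transcript with most exons that covers the window. RefSeq spans replaced those of GENCODE vM21 after the data were seen, since GENCODE stretches Fgfr2 over 2961 kb. The members and lists were chosen with earlier results of these data known. Every member gene with a window was named, and other pathway genes were named from 4 windows. Sequences on chromosome 18 or over a UTR were not printed. The values of 1 other pathway gene and the sequences of 2 windows that these rules would give are not reported here. Intervals are 95% Wilson intervals for counting error only, and no test was run. The steps were checked on made-up windows with Python 3.11.15 and pandas 2.3.3. Inputs, H3K27ac ChIP, MNase and RNA-seq were not used here.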

Additional observations from a re-analysis of the deposited data

How the results depend on the processing

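The 4 pathway shares, the overall share and the 2 totals were recomputed under 13 alternatives. Of the 91 values, 24 equalled the main value, many because the alternative did not touch that pathway. Of the other 67, all but 2 stayed within the 95% interval of the share, which is wide for few windows, or within 1.5 times the count. The 2 came from taking only windows wholly inside a gene, which left 45 windows and 27 genes by its construction. The Wnt share ranged from 38.5% (windows inside the genes) to 54.3% (without Wnt7b), the BMP and Smad share from 80% (without Bmp7) to 90.9%, the FGF share from 61.5% (without Fgf3) to 76% (without Fgfr1) and the Notch share from 50% to 57.1%. 3 genes shared the largest number of windows (7), so each was left out in turn, and Bmp7 and Fgf3 were also left out, a choice made after the data had been seen. GENCODE spans, which gave Fgfr2 22 windows in place of 2, and a limit of 50 kb on windows given by ID were added after the data had been seen: they gave 134 and 92 windows. No paired analysis was possible because the lists pool the replicates of each line. For the same reason no library could be left out, and no stricter threshold could be set. The lists give no depth, so how many differences were missed at each gene is unknown, and 57 genes without a window cannot be read as unchanged.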
